A study of Rattus norvegicus with 6 samples.

Results

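The class I antigen processing machinery is the set of proteins that cut intracellular proteins into peptides, carry the peptides into the endoplasmic reticulum and load them onto major histocompatibility complex (MHC) class I molecules. The 10 genes described here, B2m, Tap1, Tap2, Tapbp, Psmb8, Psmb9, Psmb10, Nlrc5, Erap1 and Psme1, were chosen by symbol, and all 10 were found among the 17833 genes of the deposited table. Bulk RNA-seq was performed on pulmonary veins (PVs) of wild-type Sprague-Dawley rats that underwent bilateral PV banding (BPVB) or a sham operation on postnatal day 1, with 3 rats per group and 1 library per rat. PVs of the right upper lobe were taken on postnatal day 21. The sham rats shared the cold anesthesia and the opening of the chest, and lacked only the constriction. The sex of the pups is not given in the sources used here.

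Class I molecules display peptides from inside the cell to CD8 T cells and natural killer cells. In the standard proteasome, 3 catalytic subunits cleave proteins. Cells exposed to interferon exchange them for inducible counterparts and form the immunoproteasome, whose products suit class I molecules better. Peptides pass through the TAP transporter, are trimmed by aminopeptidases in the endoplasmic reticulum and are fitted by tapasin into the groove of a heavy chain bound to β2-microglobulin. Most nucleated cells make these proteins at a low rate, and interferon and inflammatory cytokines raise it. Endothelial cells and macrophages are among the cells of a vein wall that make them in quantity.

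The deposited values were FPKM, which are fragments divided by gene length and by the library total, to allow for differences in length and depth. Other differences between libraries remain. Summed FPKM was 474729 to 482190 in the BPVB group and 487617 to 491132 in the sham group. The library totals behind them were 26078189 to 29725808 fragments in the BPVB group and 23439506 to 23821184 in the sham group. The groups were compared by a two-sided limma fit to log2(FPKM + 0.5), which covered the 15150 genes whose mean FPKM reached 0.1. A gene is called higher or lower here when its Benjamini-Hochberg adjusted p over all these genes was under 0.05. The median log2 fold change of all tested genes was 0.0245. Beside the transcripts of the known tissues of veins, the samples carried those of alveolar epithelium, a lung tissue. The 8 alveolar markers summed to 641 to 694 FPKM in the BPVB group and 139 to 143 in the sham group. The 5 smooth muscle markers summed to 4586 to 4648 FPKM in the BPVB group and 4969 to 5019 in the sham group, and the 6 markers of atrial myocardium, which forms a sleeve around PVs, summed to 11255 to 11657 and 15129 to 15487.

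All 10 genes passed the filter on low expression. In the BPVB group, 4 were called higher (Psmb8, Tapbp, Tap1 and B2m) and 1 was called lower (Psme1), whereas Tap2, Erap1, Nlrc5, Psmb9 and Psmb10 were not called. Of all tested genes, 31.5% were called, 17.2% higher and 14.3% lower. The median log2 fold change of the 10 genes was 0.197. It was 0.118 without sham replicate 1, 0.303 with a pseudocount of 0.1 and 0.305 with limma-voom. The changes were moderate. The largest ratio of group means was 1.57, and no member passed an absolute log2 fold change of 1, which 3.27% of all tested genes did together with the adjusted p. In 6 of the 10 genes the groups did not overlap, beside 45.6% of all tested genes. In 5 of these 6 the BPVB group was higher and in 1 lower, beside 25.2% and 20.5%. Each of the 10 genes kept its direction under the 16 alternatives of scaling, filter, pseudocount, model and left-out library, except that the stricter filter left Nlrc5 untested. Tissue was sequenced whole, so that fewer cells of a type and less RNA per cell cannot be told apart.

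**Figure D1:**
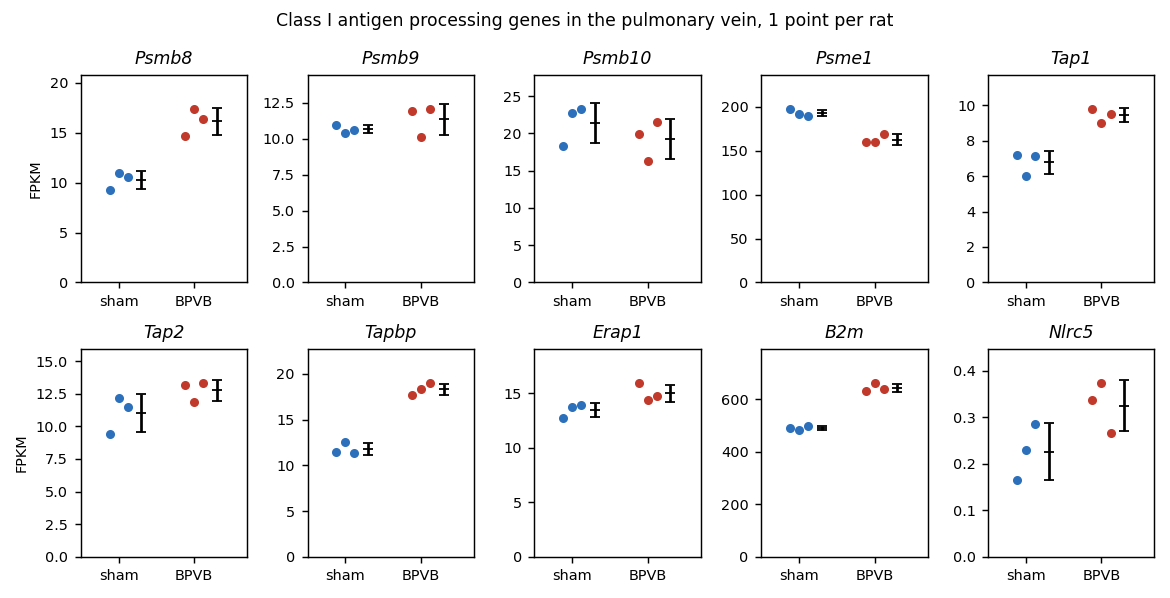
FPKM of the 10 class I processing genes in each sham (blue) and BPVB (red) library, with the mean and SD (n = 3) beside the points and axes that start at 0. Psmb8, Tap1, Tapbp, Erap1 and B2m do not overlap between the groups and are higher after banding, and Psme1 is lower in all 3 banded rats.

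In level, B2m stood far above the rest, followed by Psme1. In the sham group, B2m was at 491 ± 6.4 FPKM and Psme1 at 193 ± 3.8 (SD, n = 3 each), and Psmb10 came next at 21.4 ± 2.7. Tapbp, Tap2, Psmb9 and Psmb8 lay between 10.3 and 11.8 FPKM, and each of them overlapped with the next in this order. Tap1 was lower, at 6.78 ± 0.66, and Nlrc5 was by far the lowest, at 0.226 ± 0.061. In the BPVB group the order changed in its middle part. Tapbp moved from position 5 to 4 and overlapped with Psmb10, and Psmb8 moved from position 8 to 5, where it overlapped with Erap1. The fragments behind these values ranged from 43 for Nlrc5 in a sham library to 34731 for B2m in a BPVB library.

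To set the values beside the sequences through which interferon and cytokine signals are known to reach these genes, promoter windows were read from RefSeq (build GRCr8), from 250 bases before to 50 bases after the gene start. Windows were found for 8 of the 10 genes, all but Nlrc5 and Erap1. The build behind the deposited values is not given in the sources used here, so the windows were matched by NCBI Gene number. Each window was searched on both strands for 3 motifs. The core of the interferon-stimulated response element (ISRE), bound by IRF factors, was searched as GAAANNGAAA and was found in 6 of the 8 windows, and in 3.92% of all 33469 windows of this length. The NF-κB site was found in 3 of the 8, and in 7.51% of all. The CCAAT box was found in 3 of the 8, and in 37.5% of all. A match is a stretch of letters and was not tested as a binding site.

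All 4 members called higher held an ISRE core, and B2m, Tap1 and Tapbp held an NF-κB site as well. Their windows are shown because they are the promoters of the members that rose. Capitals mark the ISRE core and the NF-κB site, written 5′ to 3′ along the gene. B2m is at chr3:129549080-129549379, plus strand, with the ISRE core first and the NF-κB site, on the other strand, after it.
B2m: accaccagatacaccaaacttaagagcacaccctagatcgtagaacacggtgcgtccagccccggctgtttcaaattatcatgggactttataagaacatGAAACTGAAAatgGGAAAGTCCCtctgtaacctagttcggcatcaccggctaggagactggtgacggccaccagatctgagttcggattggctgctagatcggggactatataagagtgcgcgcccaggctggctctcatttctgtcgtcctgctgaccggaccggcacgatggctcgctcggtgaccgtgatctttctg
Tap1 is at chr20:4668494-4668793, minus strand, with the ISRE core, on the other strand, first.
Tap1: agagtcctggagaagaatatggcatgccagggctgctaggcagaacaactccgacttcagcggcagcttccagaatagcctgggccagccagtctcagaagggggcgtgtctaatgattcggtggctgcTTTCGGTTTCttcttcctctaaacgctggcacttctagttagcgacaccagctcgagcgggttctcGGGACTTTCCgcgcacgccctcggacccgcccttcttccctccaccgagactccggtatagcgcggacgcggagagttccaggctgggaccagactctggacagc
Tapbp is at chr20:4967828-4968127, minus strand, with the NF-κB site first and 2 overlapping ISRE cores after it.
Tapbp: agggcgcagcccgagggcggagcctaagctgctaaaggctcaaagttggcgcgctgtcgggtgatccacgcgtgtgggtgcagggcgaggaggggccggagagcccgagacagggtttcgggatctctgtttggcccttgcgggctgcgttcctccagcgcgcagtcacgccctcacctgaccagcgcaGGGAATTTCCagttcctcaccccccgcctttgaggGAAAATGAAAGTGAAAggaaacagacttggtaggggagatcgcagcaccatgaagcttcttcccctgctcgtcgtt
Psmb8 is at chr20:4656982-4657281, minus strand, with an ISRE core, on the other strand, across the gene start.
Psmb8: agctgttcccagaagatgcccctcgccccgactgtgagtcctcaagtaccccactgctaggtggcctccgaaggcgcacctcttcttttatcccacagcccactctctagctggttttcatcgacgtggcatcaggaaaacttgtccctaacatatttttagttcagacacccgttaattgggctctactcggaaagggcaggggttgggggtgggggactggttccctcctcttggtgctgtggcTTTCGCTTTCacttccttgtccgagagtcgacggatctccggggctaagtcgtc

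An ISRE core was also present in 2 genes that were not called, Tap2 and Psmb10. Their cores are shown in capitals with 20 bases on each side. The Tap2 stretch is at chr20:4652308-4652357, minus strand. Psmb10 held 2 cores, at chr19:50743336-50743385, minus strand, and at chr19:50743280-50743329, minus strand.
Tap2: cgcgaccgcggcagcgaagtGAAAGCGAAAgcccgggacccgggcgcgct
Psmb10 first core: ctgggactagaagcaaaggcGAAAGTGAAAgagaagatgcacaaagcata
Psmb10 second core: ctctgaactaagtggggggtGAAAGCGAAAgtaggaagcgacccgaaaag
The same letters as in Tap2 stand in the window of Psme2, which was not called either, at chr15:33052775-33052824, minus strand.
Psme2: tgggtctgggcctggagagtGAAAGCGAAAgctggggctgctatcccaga
The windows of Psme1, Psmb5 and Psmb6 held none of the 3 motifs in full, and that of Psme1 ends on the first 8 of the 10 letters of an ISRE core on the other strand. The window of Psmb9 held a CCAAT box alone. So did that of Tapbpl, a partner in loading that was called higher (log2 fold change 0.24, adjusted p = 0.030, limma). Tap1 and Psmb9 are neighbours that are read away from each other, and their windows overlap by 44 bases, which hold no motif match. The ISRE core and the NF-κB site of Tap1 lie between the starts of both genes, outside the window of Psmb9.

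**Figure D2:**
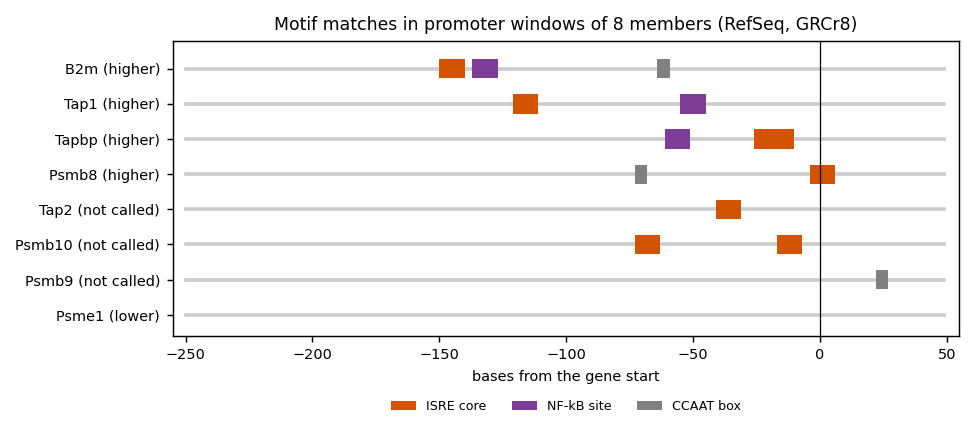
Positions of motif matches, in bases from the gene start, in the promoter windows of 8 class I processing genes, with the call of each gene in brackets. ISRE cores (orange) stand in 6 windows, among them the 4 genes called higher and the uncalled Tap2 and Psmb10.

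Among the immunoproteasome subunits, only Psmb8 was called. Its log2 fold change and that of Tapbp were the largest of the 10 genes and lay within their standard errors of each other. Psmb8 (NCBI Gene 24968) encodes β5i, the inducible subunit with chymotrypsin-like activity. In banded rats 1 to 3 its FPKM was 14.7, 17.4 and 16.4, against 9.30, 11.0 and 10.6 in sham rats 1 to 3, an order that is kept for the genes that follow. All 3 banded rats lay above all 3 sham rats. The mean rose from 10.3 ± 0.87 to 16.2 ± 1.4 FPKM (SD, n = 3 each), a log2 fold change of 0.63 with a standard error of 0.084 (limma, adjusted p = 0.00054). Between 240 and 530 fragments per library lay behind it. The ISRE core of its promoter, shown above, spans the gene start.

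Psmb9 (NCBI Gene 24967) encodes β1i, which takes the place of a subunit that cuts after acidic residues. It stood at 11.9, 10.1 and 12.1 FPKM after banding, against 11.0, 10.4 and 10.6 after the sham operation. The groups overlapped, with BPVB replicate 2 below all sham rats. The log2 fold change was 0.08, with a 95% interval from -0.09 to 0.26 (adjusted p = 0.46, limma). It was 0.16 without BPVB replicate 2, 0.05 without BPVB replicate 1 and 0.04 without BPVB replicate 3, and it was 0.056 after quantile normalization. Psmb10 (NCBI Gene 291983), which encodes β2i, the third inducible subunit, had an FPKM of 19.9, 16.2 and 21.5 after banding, against 18.3, 22.7 and 23.2. These groups overlapped as well, and the log2 fold change was -0.15 (95% interval from -0.42 to 0.11, adjusted p = 0.35, limma). For Psmb10, leaving out BPVB replicate 2 gave -0.04 and leaving out BPVB replicate 3 gave -0.24, while the value was -0.26 when sham replicate 1 was omitted and -0.09 when sham replicate 3 was. The window of Psmb10 holds 2 ISRE cores and that of Psmb9 none. The ISRE core of Tap1 lies upstream of Psmb9, beyond the window of Psmb9.

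Each inducible subunit competes with 1 standard subunit for its place in the proteasome, and the ratio of the pair within a library does not depend on the scaling between libraries. Psmb8 made up 13.0%, 14.3% and 13.8% of the summed FPKM of Psmb8 and its standard counterpart Psmb5 after banding, against 7.60%, 8.99% and 8.07% in sham rats. The share thus lay higher in every banded rat, and the log2 ratio differed by 0.83 (exact permutation test, two-sided, p = 0.1, adjusted p = 0.15 over the 3 pairs). A comparison of 3 rats with 3 allows no p under 0.1. Psmb9 made up 8.50% ± 0.83 of the sum with Psmb6 in the BPVB group and 7.15% ± 0.34 in the sham group (SD, n = 3 each), again without overlap, and the log2 ratio differed by 0.27 (exact permutation test, p = 0.1, adjusted p = 0.15). Psmb10 made up 12.9% ± 1.9 of the sum with Psmb7 in the BPVB group and 14.2% ± 1.3 in the sham group (SD, n = 3 each), with overlap (difference of the log2 ratio -0.17, exact permutation test, p = 0.5, adjusted p = 0.5). With BPVB replicate 2 left out, that difference was -0.044, and with BPVB replicate 3 left out it was -0.29. It was -0.11 when sham replicate 3 was omitted.

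**Figure D3:**
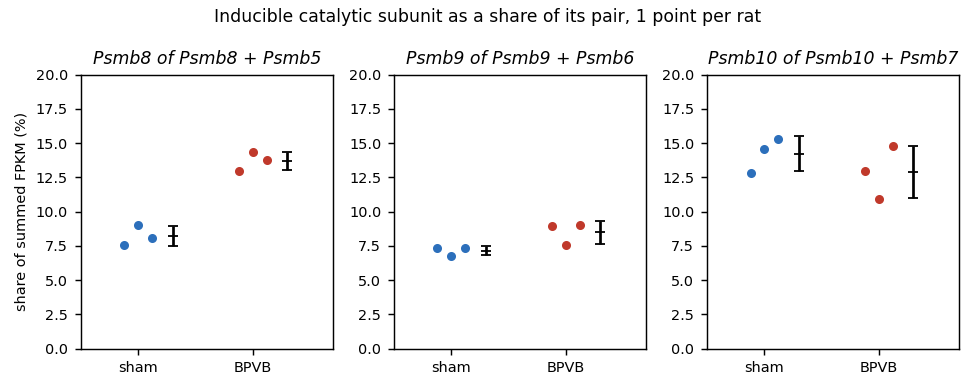
Share (%) of the inducible catalytic subunit in the summed FPKM of the inducible and the standard subunit of each pair, per sham (blue) and BPVB (red) library, with mean and SD (n = 3). The share of Psmb8 lies between 7.60% and 8.99% in sham rats and between 13.0% and 14.3% in banded rats, and the share of Psmb10 overlaps.

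Of the standard partners, Psmb5 and Psmb6 were called lower, with log2 fold changes of -0.18 each (adjusted p = 0.0097 and 0.0026, limma), and Psmb7 had a log2 fold change of 0.01. In the standard 20S core as a whole, 6 of 14 genes were called lower and none higher (limma, also none at an unadjusted p under 0.05 and none with limma-voom), with a median of -0.12. The largest fall was that of Psma4 (log2 fold change -0.18). Of the 19S regulator, which recognises ubiquitin-tagged proteins, 5 of 18 genes were called higher, led by Psmd11 (0.24), and none lower (limma, none at an unadjusted p under 0.05, none with limma-voom).

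The only member called lower was Psme1 (NCBI Gene 29630), which encodes PA28α, a subunit of the ring that caps the proteasome and opens its channel. Banded rats had 159, 159 and 169 FPKM, against 197, 192 and 189.7 in sham rats. All banded rats lay below all sham rats. The mean fell from 193 ± 3.8 to 163 ± 5.8 FPKM (SD, n = 3 each), and the log2 fold change was -0.25 with a standard error of 0.033 (limma, adjusted p = 0.00052). After quantile normalization it was -0.16 (limma, adjusted p = 0.011). Psme2, which encodes PA28β, the partner of PA28α in the same ring and its neighbour on chromosome 15, had a log2 fold change of 0.02 (adjusted p = 0.77, limma). Its mean was 34.7 ± 0.25 FPKM in the BPVB group and 34.3 ± 1.0 in the sham group (SD, n = 3 each). The log2 ratio of Psme1 to Psme2 was therefore lower by 0.27 in the BPVB group, from 2.49 ± 0.058 to 2.23 ± 0.057 (SD, n = 3 each), without overlap (exact permutation test, p = 0.1, adjusted p = 0.12 over 6 pairs of genes that were chosen after their values were seen). In the RefSeq annotation Psme1 overlaps with Emc9, and since the strand setting of the counting is not given in the sources used here, reads of these genes may not have been told apart. Pomp, the chaperone that assembles immunoproteasomes and standard proteasomes, was also called lower (log2 fold change -0.26, adjusted p = 0.00031, limma).

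Of the transporter, one chain was called higher. Tap1 (NCBI Gene 24811) and Tap2 (NCBI Gene 24812) encode the chains of the ATP-driven pump that moves peptides into the endoplasmic reticulum, and they work as a dimer. The FPKM of Tap1 was 9.77, 9.01 and 9.53 after banding, against 7.20, 6.02 and 7.12 in sham rats. All banded rats exceeded all sham rats, with means of 9.44 ± 0.39 and 6.78 ± 0.66 FPKM (SD, n = 3 each) and a log2 fold change of 0.45 with a standard error of 0.084 (limma, adjusted p = 0.0036). Tap2 was at 13.2, 11.8 and 13.3 FPKM after banding, against 9.415, 12.2 and 11.5. BPVB replicate 2 lay within the range of the sham group, whose replicate 1 was the lowest. The log2 fold change of Tap2 was 0.21, with a 95% interval from -0.01 to 0.43 (adjusted p = 0.14, limma), and it was 0.10 without sham replicate 1. The log2 ratio of Tap1 to Tap2 differed by 0.26 between the groups and overlapped (exact permutation test, p = 0.4, adjusted p = 0.4 over the same 6 pairs), so that a difference between the chains was not shown. The promoter windows of Tap1 and Psmb9 overlap in part, as given above. The log2 ratio of Tap1 to Psmb9 was higher by 0.39 in the BPVB group, without overlap (exact permutation test, p = 0.1, adjusted p = 0.12 over the same 6 pairs). Within the chromosome 20 cluster, the log2 ratio of Psmb8 to Psmb9 was higher by 0.56 and, outside it, that of Psmb8 to Psmb10 by 0.81 (exact permutation tests, p = 0.1 and adjusted p = 0.12 each).

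Tapbp (NCBI Gene 25217) encodes tapasin, which holds empty class I molecules at the transporter and edits the peptides they bind. Banding went with 17.7, 18.3 and 18.96 FPKM, against 11.5, 12.6 and 11.3 in sham rats. The groups were far apart relative to their spread. The mean rose from 11.8 ± 0.69 to 18.3 ± 0.61 FPKM (SD, n = 3 each), a log2 fold change of 0.62 with a standard error of 0.061 (limma, adjusted p = 9.0e-05). Tapbpl, which encodes TAPBPR, a second peptide editor that works away from the transporter, was called higher as well, by 0.24 (adjusted p = 0.030, limma). The log2 ratio of Tapbp to Tapbpl was higher by 0.39 in the BPVB group, without overlap (exact permutation test, p = 0.1, adjusted p = 0.12 over the same 6 pairs).

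Of the general chaperones of the loading step, Calr (calreticulin, log2 fold change -0.17) and Hspa5 (BiP, -0.32) were called lower. Canx (calnexin, -0.02) and Pdia3 (ERp57, 0.08) were not called. In the list of 8 partners of generation, trimming and loading, 1 gene was called higher and 3 lower, and the median was -0.04.

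Erap1 (NCBI Gene 80897) encodes the aminopeptidase that trims peptides in the endoplasmic reticulum to the length that class I molecules hold. It was at 15.9, 14.4 and 14.7 FPKM in banded rats, against 12.8, 13.7 and 13.95. The groups did not overlap, but lay close together. The log2 fold change of 0.15 (95% interval from 0.01 to 0.29) had an adjusted p of 0.10 (limma), and the adjusted p was 0.024 with limma-voom on the recovered fragments. Lnpep, which encodes a related aminopeptidase of endosomes, had a log2 fold change of -0.06 (adjusted p = 0.47, limma).

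B2m (NCBI Gene 24223) encodes β2-microglobulin, the light chain that all class I heavy chains need to reach the cell surface. Banded rats had 633, 660.5 and 639 FPKM, against 493, 484 and 497 in sham rats. The lowest banded rat stood well above the highest sham rat. The mean rose by 31.1%, from 491 ± 6.4 to 644 ± 15 FPKM (SD, n = 3 each), and the log2 fold change was 0.39 with a standard error of 0.025 (limma, adjusted p = 5.7e-06). B2m had the smallest adjusted p among the 10 genes. Its level exceeded that of 99.1% of the tested genes.

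The heavy chains that pair with B2m changed in both directions. Of 25 tested heavy chain genes, 7 were called higher and 10 lower. Summed over the 22 RT1 class I genes of the list, FPKM was 373.7 to 377.4 in banded rats and 274.1 to 294.5 in sham rats, and without RT1-CE16 the sum was 218.5 to 221.2 and 273.5 to 294.2. RT1-CE16 itself was at 155 to 159 FPKM in the BPVB group and 0.0758 to 0.655 in the sham group. The largest fall was that of RT1-CE3 (log2 fold change -1.62). These genes have near-identical copies among which the counting could have split reads. The litter and the RT1 genotype of the rats are not given in the sources used here. A difference in them between the groups cannot be told apart from an effect of banding. Of the heavy chains outside the RT1 region, Hfe, whose protein takes part in the control of iron uptake, was called lower (log2 fold change -0.66), as was the lipid-presenting Cd1d1 (-0.30), and Fcgrt, the neonatal Fc receptor, was not called (0.03). By the RefSeq annotation, RT1-CE16, Tap1, Tap2, Tapbp, Psmb8 and Psmb9 all lie on chromosome 20. The part of the RT1 differences in the values of these members was not tested. B2m lies on chromosome 3, Psmb10 and Nlrc5 on 19, Erap1 on 2 and Psme1 on 15.

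Nlrc5 (NCBI Gene 291861) encodes the transactivator that joins the enhanceosome at class I promoters, where it drives B2m, TAP and immunoproteasome genes together with heavy chains. It was at 0.337, 0.372 and 0.266 FPKM after banding, against 0.164, 0.2285 and 0.286. The highest sham rat lay above the lowest banded rat. At 43 to 107 fragments per library, the log2 fold change of 0.19 had a 95% interval from -0.14 to 0.51 (adjusted p = 0.37, limma), and a change of the size seen for Tap1 lies within that interval. The pseudocount lowers this fold change, which became 0.11 at a pseudocount of 1, 0.39 at a pseudocount of 0.1, 0.30 on TPM and 0.53 under limma-voom, still without a call. It was 0.12 without sham replicate 1. In the RefSeq annotation Nlrc5 overlaps with other loci, whose reads may not have been told apart either.

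**Figure D4:**
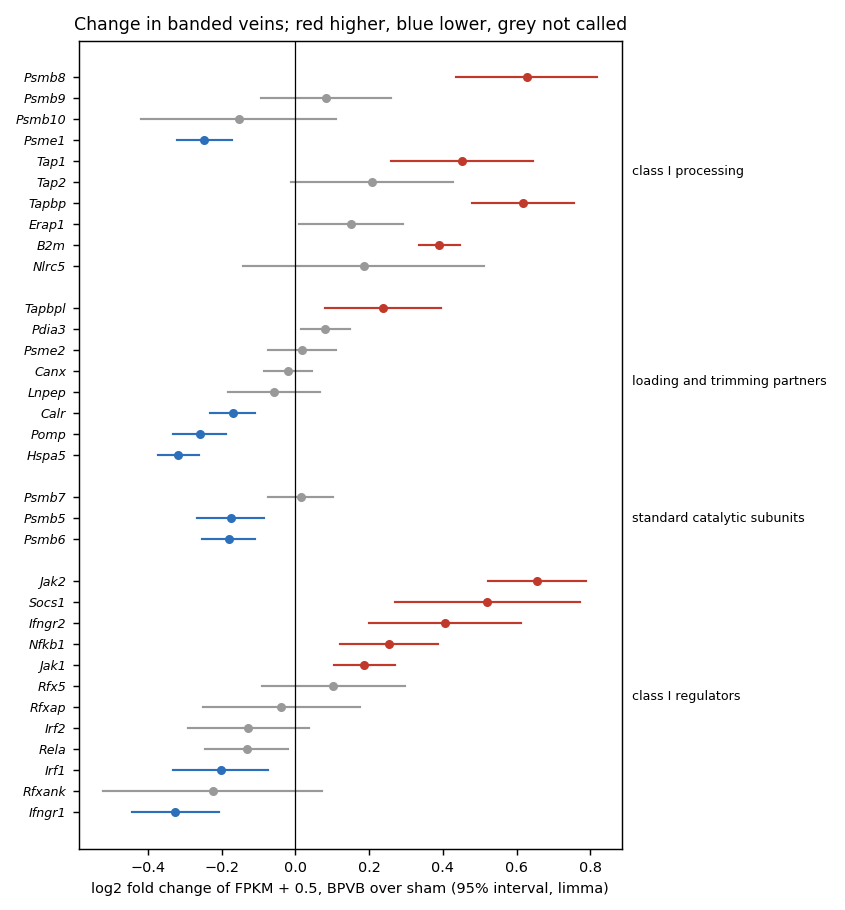
Log2 fold change of FPKM + 0.5 (BPVB over sham) with its 95% interval from limma, for the 10 class I processing genes and for lists of partners, standard catalytic subunits and regulators; red genes were called higher, blue lower and grey not called. Psmb8 and Tapbp lie near 0.6, and Psme1, Psmb5 and Psmb6 lie below 0.

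The genes that are known to act upstream of these promoters were mixed. Of 12 regulators, 5 were called higher and 2 lower. Jak2, a kinase of the interferon-γ receptor, rose the most (log2 fold change 0.66, adjusted p = 5.1e-05, limma). Ifngr2, a chain of that receptor, was higher (0.41), and Ifngr1, its other chain, was lower (-0.33). Irf1, a transcription factor that binds interferon response elements, was called lower (-0.20, adjusted p = 0.025, limma). Of the NF-κB genes in the list, Nfkb1 was called higher (0.25, adjusted p = 0.0099, limma) and Rela was not called (-0.13, adjusted p = 0.075, limma). Socs1, an inhibitor of the interferon receptors' kinases, was called higher (0.52, adjusted p = 0.0069, limma), as was the kinase gene Jak1 (0.19). The enhanceosome gene Rfx5 was not called (0.10, adjusted p = 0.40, limma). Ciita, the class II counterpart of Nlrc5, rose from 0.368 ± 0.066 to 0.805 ± 0.049 FPKM (SD, n = 3 each; log2 fold change 0.59, adjusted p = 0.0089, limma).

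Other interferon-inducible genes did not move as one group. Of 13 tested genes known for induction by interferon-γ, 4 were called higher, led by Ifi47 (0.75), an immunity-related GTPase, and 1 was called lower, the T cell chemokine Cxcl9 (-1.17). The median of the list was 0.21. Of 17 genes known for induction by type I interferon, 7 were called lower, with Ifit1 falling the most (-3.21, with 0 to 5 fragments per banded rat), and none higher (limma, 1 at an unadjusted p under 0.05, none with limma-voom). The median of that list was -0.24.

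Marker lists of immune and structural cells are given beside these genes. Of 5 pan-leukocyte markers, 4 were called higher and their summed level was 57.4 to 64.0 FPKM in the BPVB group and 33.0 to 37.9 in the sham group. Ptprc, which encodes CD45, rose the most (log2 fold change 1.06). Of 10 macrophage markers, 9 were called higher, with sums of 726 to 743 and 259 to 267 FPKM. Most of that sum was Lyz2, which encodes a lysozyme, at 574 to 604 and 159 to 167 FPKM, and the other 9 markers summed to 139 to 151 and 95.3 to 101.0 FPKM. Of 6 tested dendritic cell markers, 2 were called higher, Flt3 and Ccr7, with sums of 9.61 to 10.5 and 7.10 to 7.58 FPKM. Of 10 tested T and NK cell markers, 1 was called higher, Cd4, which rat macrophages also express, and the sums were 12.3 to 14.3 and 9.73 to 11.0 FPKM. Without Cd4 they were 4.35 to 5.49 and 4.54 to 5.81 FPKM, and overlapped. The T cell marker Cd3e was at 0.352 to 0.690 and 0.434 to 0.789 FPKM. The B cell markers summed to at most 3.34 FPKM in any library, and none of 5 was called (limma, none at an unadjusted p under 0.05, 1 lower with limma-voom). No marker of these lists was at 0 in all 6 libraries.

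Of 8 markers of alveolar epithelium, 7 were called higher, with sums of 641 to 694 FPKM in the BPVB group and 139 to 143 in the sham group, and 3 of 5 endothelial markers were called lower, with sums of 869 to 884 and 962 to 969 FPKM. Of the markers of atrial myocardium, whose sums are given above, 5 of 6 were called lower and 1 higher, and of the smooth muscle markers 4 of 5 were called lower. In their single-cell data, the authors took epithelial cells to come likely from lung parenchyma and left them out. The part of all these cell types, leukocytes and alveolar epithelium included, in the values of B2m, Tap1, Tapbp, Psmb8 and Psme1 was not tested.

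**Figure D5:**
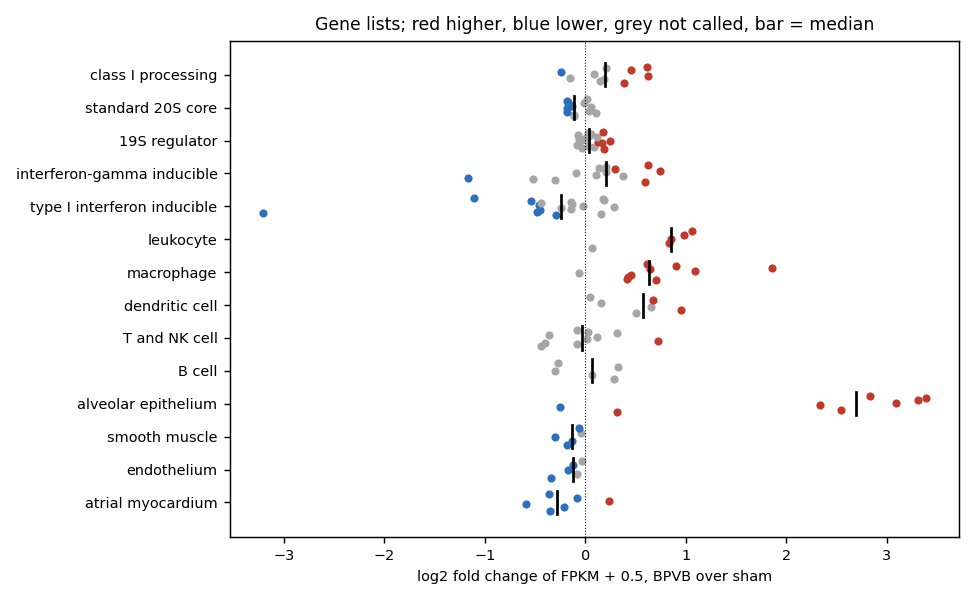
Log2 fold change of FPKM + 0.5 (BPVB over sham) of each tested gene of the class I processing group, of proteasome and interferon lists and of cell type markers, with the median of each list as a black bar. Red genes were called higher, blue lower and grey not called. Class I processing genes lie between -0.25 and 0.63 with a median of 0.197. The median is 0.85 for leukocyte, 0.63 for macrophage and 2.69 for alveolar epithelium markers.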

How the data were processed

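Bulk RNA-seq of PVs from 3 BPVB and 3 sham rats was analysed, with groups and replicate numbers taken from the sample titles and 0 columns of per-sample values left unused. Reads had been trimmed (fastp), mapped (HISAT) and counted per gene (HTSeq-count) by the authors, who deposited FPKM. The submitters' processing notes name HISAT2 2.0.5, StringTie 1.3.3b, featureCounts 1.5.0-p3 and DESeq2 1.20.0. The genome build, annotation version and strand setting are not given in the sources used here.

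Since FPKM and not counts were deposited, the main test was planned as limma 3.58.1 in R 4.3.3 in place of the authors' DESeq2. It (lmFit and eBayes with trend) was fitted to log2(FPKM + 0.5), for genes whose mean FPKM reached 0.1. The pseudocount lowers the fold change of weakly expressed genes. Fragments were recovered from the ratios of FPKM between libraries, which were whole for 100.0% of genes (within 0.001), as the smallest whole numbers that also gave a whole gene length. They were used for depth and for limma-voom, and DESeq2 was not run on them. Between 2 libraries of one group their variance was 4.97 to 5.94 times the mean, so that none were counted as the same library. The fit was tested on simulated data. Within-library ratios used exact permutation tests. Scripts ran in Python 3.11.15 (pandas 2.3.3, scipy 1.17.1, numpy 2.4.6), and plots were drawn in matplotlib 3.10.9.

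The members and gene lists were chosen with earlier results of these data known. Named genes are the 10 members, genes that pair with a member, the largest called rise and fall of each list, and the 3 genes with the profile nearest to that of the member with the largest absolute log2 fold change as fitted here (Psmb8). Other list genes, Emc9 and the 6 added ratios were named after their values were seen. Alternatives were pseudocounts of 1 and 0.1, no filter or a minimum mean of 1 FPKM, median-of-ratios, quantile and TPM scaling, a replicate block, robust eBayes, limma-voom, and each library left out. No labels of batch were used. Beyond the regulators and motifs described, another regulator and another motif are not reported here.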

Additional observations from a re-analysis of the deposited data

How the results depend on the processing

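Under the 16 alternatives, the number of class I processing genes called higher was 4 to 5 and the number called lower was 1, and with each library left out in turn these numbers were 4 and 1. The fifth gene was Erap1, with limma-voom. The median log2 fold change of the 10 genes, 0.197, was 0.303 with a pseudocount of 0.1, 0.305 with limma-voom and 0.27 on TPM. It ranged from 0.118 to 0.242 with each library left out, with 0.118 without sham replicate 1, the library with the lowest Tap2 and Nlrc5. With a filter at a mean FPKM of 1, Nlrc5 was not tested. The log2 ratio of Psmb8 to Psmb5 differed by 0.768 to 0.901 with each library left out, that of Psmb9 to Psmb6 by 0.218 to 0.36 and that of Psmb10 to Psmb7 by -0.291 to -0.0444. The deviations of same-numbered rats of both groups had correlations of 0.0255, 0.0136 and 0.0153, and each library correlated best with its own number. These values are small, but they cannot exclude that same-numbered rats were paired. With the replicate number as a block, 4 genes were called higher and 1 lower, and over all genes 2466 and 2073 in place of 2605 and 2170. Over all genes, median-of-ratios scaling gave 2362 higher and 2454 lower, quantile normalization 2354 and 2434, and TPM 2972 and 1857. Nlrc5 had the fewest fragments of the 10 genes, 43 in its weakest library, and the part of depth in its spread was not tested.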

Other observations

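Psmb8 had the largest fitted log2 fold change of the 10 genes, 0.627 against 0.617 for Tapbp. Tapbp was ahead without sham replicate 1 (0.60 against 0.56), without BPVB replicate 2 (0.62 against 0.57) and after quantile normalization (0.601 against 0.598), so the choice of Psmb8 as the gene to compare with rests on a narrow lead. The genes with the profile most similar to that of Psmb8 over the 6 libraries were Cdh11, which encodes a cadherin of mesenchymal cells, Hebp1, which encodes a heme-binding protein, and Plscr1, which encodes a phospholipid scramblase. Their root mean square distances from Psmb8 on centred log2(FPKM + 0.5) were 0.048, 0.050 and 0.050, the smallest among the 12156 genes whose mean reached 1 FPKM. Cdh11 was at 12.6 ± 0.70 FPKM in the BPVB group and 7.82 ± 0.73 in the sham group (SD, n = 3 each). Hebp1 was at 19.4 ± 0.84 and 12.9 ± 0.81, and Plscr1 at 9.21 ± 0.54 and 6.06 ± 0.77. A profile over 2 groups of 3 rats is set mainly by the difference between the groups.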
